A study of Mus musculus with 6 samples.

Results

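Kruppel-like factors (KLFs) were followed through the genes Klf2, Klf3, Klf4, Klf6, Klf7, Klf9, Klf10 and Klf13. These are family members described in mouse macrophages, and they were taken as a fixed list of 8 genes of the 18193 that the arrays name. They are read by 30 of 45037 probe sets, between 1 and 7 per gene, each listing no other gene. RNA from mouse macrophages had been measured on 6 one-colour Affymetrix arrays, 1 per sample. Trib1-deficient (KO) macrophages given lipopolysaccharide (LPS) gave 2 arrays and LPS-treated wild-type (WT) macrophages of the Trib1 line gave 2, each numbered 1 and 2. A separate pair of wild-type samples, 1 given LPS and 1 given medium, served to define LPS-inducible genes and is called the LPS pair. LPS, from the outer membrane of Gram-negative bacteria, activates macrophages through Tlr4. The labels do not give the tissue the macrophages came from, the LPS dose, the time, the strain, the age or the Trib1 allele, nor whether equally labelled samples came from different animals or cultures. P-values therefore measure the spread between these samples, which may be technical.

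KLFs are zinc finger transcription factors that bind GC-rich and CACCC elements in promoters. In monocytes and macrophages, Klf2 is known as a brake on inflammatory activation, Klf4 as a factor for monocyte differentiation and alternative activation, and Klf6 as a factor that favours inflammatory gene expression. Klf3 is a repressor that works through the corepressor CtBP. Klf9 responds to glucocorticoids, Klf10 to transforming growth factor beta, and Klf13 drives the chemokine gene Ccl5 in T cells.

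Intensities are given after scaling every array to a common trimmed mean, and 29.9 was taken as the floor under which a value was not read as signal. Between 57.9% and 63.0% of probe sets lay above it on each array. As the floor is the 40th percentile of the 6 arrays pooled, shares of about this size follow from that choice and are no detection rate. Trib1 itself does not check the labels: 1424880_at measured 88.1 and 20.9 on the KO-labelled arrays and 17.9 and 17.5 on the WT arrays of the line, with 189.3 for LPS and 383.5 for medium in the LPS pair. The second probe set, 1424881_at, measured 32.3 and 38.7 on the KO-labelled arrays and 20.2 and 63.0 on the WT arrays. On 1424880_at both WT arrays of the line lay under the floor, so no loss of Trib1 could be read from it. Where the probes lie relative to the deleted part is also not given, and the arrays are therefore called KO-labelled. The LPS pair stands apart from the other 4 arrays. Its deposited values were on another scale (trimmed means of 500 against 95.5 to 106.6). Xist measured 980.5 and 1616 in the pair and at most 5.56 on the 4 Trib1-line arrays, while Eif2s3y measured at most 4.74 in the pair and at least 218.8 on the 4 arrays, so the sets also differ in sex. All 8 macrophage markers (Adgre1, Csf1r, Cd68, Itgam, Lyz2, Cd14, Mertk and Fcgr1) were well above the floor on every array, with summed intensities between 74332 and 91270. The sums were not even between genotypes, at 91160 and 91270 on the KO-labelled arrays and 77078 and 84793 on the WT arrays of the line. Both KO-labelled arrays lay above both WT arrays for 5 of the 8 (beside 16.9% of all genes) and under for 1 (beside 15.7%).

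The medium array held the highest intensity of Klf2, Klf4, Klf9, Klf10 and Klf13, above all 5 LPS-treated arrays. Klf7 was the reverse, lowest in medium, and in the LPS pair Klf3 was 1.34-fold lower and Klf6 1.21-fold higher with LPS. These statements are for the brightest probe set of each gene. Klf10 differed most in the pair, at 320.3 with LPS and 1109 in medium, 3.46-fold lower. None of the 8 genes reached a 4-fold change. With 1 array per condition the pair allows no test, and all ratios to medium share that 1 array.

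Klf2 (1448890_at, its single probe set) had an intensity of 509.5 with LPS and 1463 in medium, 2.87-fold lower. It measured 346.9 and 379.9 on the KO-labelled LPS arrays and 284.5 and 155.1 on the WT arrays of the line. All 5 LPS-treated arrays lay well under medium, by 2.87-fold to 9.43-fold, and the lowest was WT 2. Klf10 (1416029_at, also its single probe set) measured 487.2 and 197.8 on the KO-labelled arrays and 341.7 and 152.9 on the WT arrays, beside 320.3 with LPS and 1109 in medium in the pair. These 5 arrays also lay under medium, by 2.28-fold to 7.26-fold, and the arrays numbered 2 were the lowest in both genotypes.

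Klf4 is read by a pair of probe sets made from 1 design sequence. On 1417394_at it measured 279.4 with LPS and 720.4 in medium, 2.58-fold lower. The KO-labelled arrays measured 116.6 and 477.9 and the WT arrays 176.2 and 510.4. Both genotypes thus held a low array, numbered 1, and a high array, numbered 2. The high arrays lay only 1.51-fold (KO 2) and 1.41-fold (WT 2) under medium. On 1417395_at the values were 215.2 with LPS and 383.3 in medium, with 97.8 and 175.0 on the KO-labelled arrays and 100.2 and 202.0 on the WT arrays. The same arrays were low on both probe sets.

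**Figure D1:**
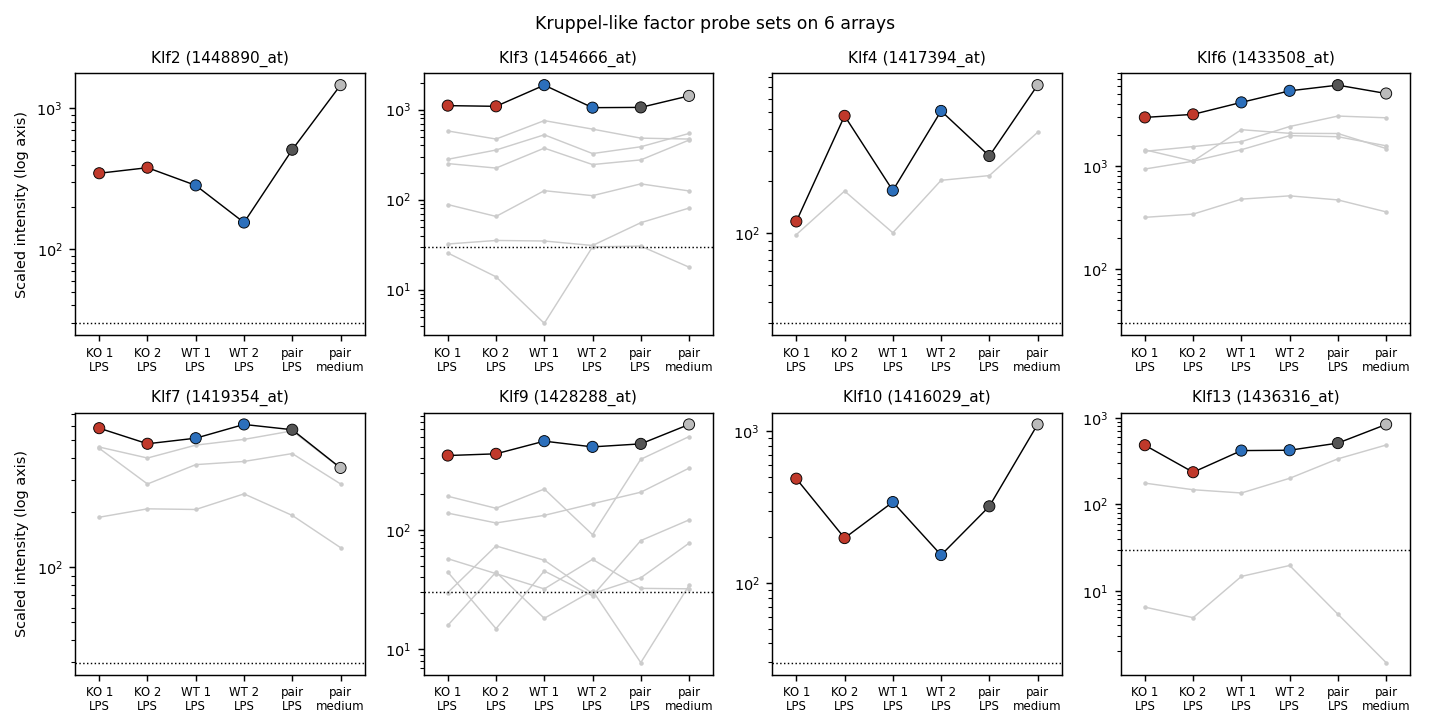
Scaled intensity (log axis) of the 30 Kruppel-like factor probe sets on the KO-labelled (red), WT (blue), LPS-pair LPS (dark grey) and medium (light grey) arrays, 1 panel per gene. Coloured points are the probe set with the highest mean, pale lines the other probe sets of the gene, and the dotted line is the floor of 29.9. The medium point is the highest for Klf2 (1463), Klf4 (720.4), Klf9 (770.0), Klf10 (1109) and Klf13 (837.7) and the lowest for Klf7 (351.5).

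The starts of Klf2 and Klf4 are shown as examples of genes that lay under medium on every LPS-treated array. Klf9 and Klf13 did so too on their brightest probe sets and are not shown, and Klf10 had no promoter among those searched. The sequences are the 250 bases before the start of each gene, from RefSeq on build GRCm38.p6, chr8:72318812-72319061 on the + strand for Klf2 and chr4:55532476-55532725 on the - strand for Klf4. Capitals mark matches, on either strand, to a loose form of the MEF2 motif (CTA and TAG held apart by any 4 bases), GGGCGG (the GC box bound by SP and KLF proteins) and CCAAT.

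Klf2: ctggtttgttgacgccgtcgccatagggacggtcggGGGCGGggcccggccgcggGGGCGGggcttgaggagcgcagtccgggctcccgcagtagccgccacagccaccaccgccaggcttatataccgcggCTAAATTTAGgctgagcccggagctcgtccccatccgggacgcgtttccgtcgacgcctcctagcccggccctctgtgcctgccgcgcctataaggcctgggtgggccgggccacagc

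Klf4: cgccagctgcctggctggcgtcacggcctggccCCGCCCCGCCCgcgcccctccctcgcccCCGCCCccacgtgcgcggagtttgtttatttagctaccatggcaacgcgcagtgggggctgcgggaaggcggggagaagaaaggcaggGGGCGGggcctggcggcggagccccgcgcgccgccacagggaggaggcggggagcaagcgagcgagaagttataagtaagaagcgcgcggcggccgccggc

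The Klf2 stretch holds CTAAATTTAG, 118 bases before the start. The loose MEF2 pattern, with any 4 bases in the middle, was found in 3.2% of 32841 promoters of the same length. The share for these exact letters was not counted. None of the other 6 members with a promoter in the table (Klf3, Klf4, Klf6, Klf7, Klf9 and Klf13) had a match to the loose pattern. The GC box occurred 2 times before Klf2 and 4 times before Klf4, and in 32.7% of all promoters at least once. CACCC, the other element bound by KLFs, stood once before Klf2, 19 bases from the start, and was not found before Klf4, against 52% of all promoters. A match describes letters only and says nothing of binding.

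Klf9 was lower with LPS on its brightest probe set, 1428288_at, at 528.9 with LPS and 770.0 in medium. The line arrays measured 422.0 and 436.2 when KO-labelled and 557.3 and 499.0 when WT, so all 5 LPS-treated arrays lay under medium by 1.38-fold to 1.82-fold. A further Klf9 probe set, 1428289_at, made from the same design sequence, lay farther under medium. It measured 392.7 with LPS and 608.6 in medium, 192.1 and 152.2 on the KO-labelled arrays and 220.9 and 91.4 on the WT arrays, or 1.55-fold to 6.66-fold under. The third probe set of that sequence, 1452723_at, was near the floor and had 4 of the 5 LPS-treated arrays above medium. There the values were 32.4 with LPS and 32.1 in medium, 57.4 and 43.0 on the KO-labelled arrays and 32.0 and 56.7 on the WT arrays. Of the 7 Klf9 probe sets, 5 had every LPS-treated array under medium, and 4 of the 7 were above the floor on all 6 arrays. The log2 ratio in the LPS pair ran from -0.96 to 0.01 over them. Klf13 (1436316_at) measured 510.0 with LPS and 837.7 in medium, 482.2 and 235.0 on the KO-labelled arrays and 418.0 and 421.9 on the WT arrays. KO 2 was the lowest array, and all 5 lay under medium. A second Klf13 probe set, 1432543_a_at, behaved likewise (335.7 with LPS and 484.7 in medium), and the third, 1456030_at, was under the floor on all 6 arrays.

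Klf7 was the member whose brightest probe set lay above medium on all 5 LPS-treated arrays. On 1419354_at it measured 570.1 with LPS and 351.5 in medium, 1.62-fold higher, with 581.4 and 477.3 on the KO-labelled arrays and 512.2 and 609.5 on the WT arrays. Every LPS-treated array lay above medium on 3 of its 4 probe sets. The fourth, 1419356_at, had KO 2 at 286.8 beside 287.1 in medium. All 4 probe sets come from 1 design sequence, so they are not independent readings. Their log2 ratios in the LPS pair lay between 0.55 and 0.70.

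Klf3 differed between its probe sets, and no Klf6 probe set had all 5 LPS-treated arrays on 1 side of medium. Klf3 (1454666_at) measured 1060 with LPS and 1423 in medium, 1109 and 1090 on the KO-labelled arrays and 1873 and 1053 on the WT arrays. WT 1 alone exceeded medium, which turns the direction if that array stands in for the LPS array of the pair. Of the 7 Klf3 probe sets, 3 (1421604_a_at, 1429360_at and 1442920_at) had all 5 LPS-treated arrays under medium and 1 (1431630_a_at) had all 5 above, with KO 2 at 471.8 beside 471.7 in medium. Their log2 ratios in the pair ran from -0.73 to 0.26. Klf6 (1433508_at) measured 6144 with LPS and 5095 in medium, 1.21-fold higher, and its 5 probe sets had log2 ratios between 0.06 and 0.48. On Klf6 probe set 1418280_at WT 1, WT 2 and the LPS array of the pair measured 2269, 2092 and 2083, beside 1489 in medium. These wild-type LPS arrays lay above medium there and on 1459718_x_at, while both KO-labelled arrays lay under it. On the other Klf6 probe sets the wild-type LPS arrays fell on both sides of medium.

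**Figure D2:**
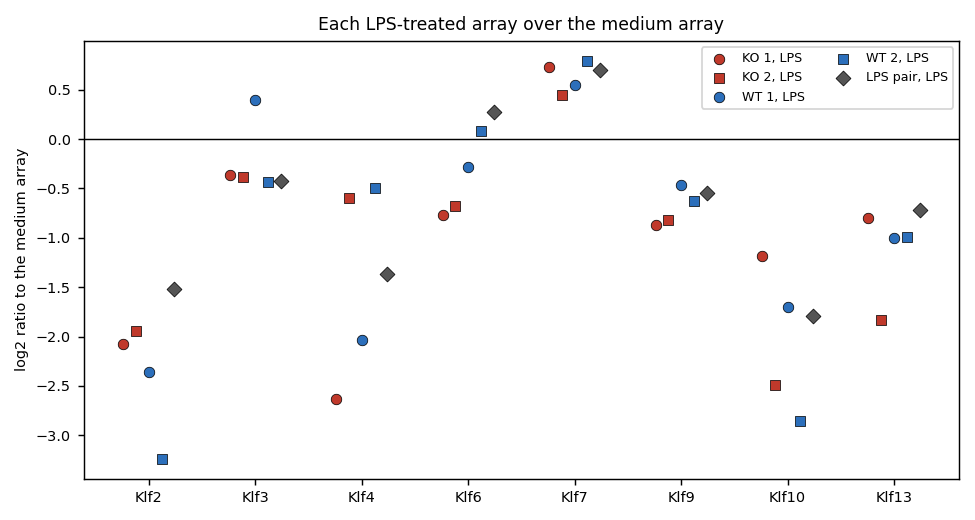
log2 ratio of each of the 5 LPS-treated arrays over the single medium array, for the brightest probe set of each gene. Points under 0 lie under medium. All 5 points are under 0 for Klf2, Klf4, Klf9, Klf10 and Klf13 and above 0 for Klf7, and for Klf6 the 2 KO-labelled points lie under the 3 wild-type points.

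Counted over probe sets, 0 of 29 member probe sets above the floor in the pair were at least 4-fold higher with LPS, beside 0.986% of all such probe sets, and 0 were at least 4-fold lower, beside 0.598%. At a 2-fold rule 3 of 29 were lower (Klf2, Klf4 and Klf10, beside 6.29%) and 0 higher (beside 5.02%). All 5 LPS-treated arrays lay under medium for 14 of 29 member probe sets, beside 22.1% of all probe sets, and above medium for 4 (beside 14.9%). The 4 were 3 of Klf7 and 1 of Klf3. Klf2 and Klf10 lay at least 2-fold under medium on all 5 arrays, which held for 1.4% of all probe sets, and 0 member probe sets lay 2-fold above on all 5, beside 1.24%. With 1 probe set per gene, 3 of the 8 members were at least 2-fold lower (beside 6.72% of genes) and 0 at least 2-fold higher (beside 5.44%). The members' median of these log2 ratios was -0.63, beside -0.11 over 13700 genes. A count over probe sets leans on the genes with many of them, and the 5 arrays share the medium array, treatment and, for 4 of them, a line that differs from the pair in sex.

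Limma of the medium array against the 3 wild-type LPS arrays, the lone medium array being assumed to vary like them, gave Klf2 a log2 difference of -2.37 (SE 0.61) and Klf10 one of -2.12 (SE 0.51). The limma adjusted p (Benjamini-Hochberg) were 0.297 and 0.250. The spread in this fit comes from the 3 LPS arrays alone, which mix the pair with the Trib1 line, so it holds no measure of how medium samples vary and is given as a description. It called 0 member probe sets, beside 0.158% of all probe sets higher and 0.0106% lower. At an unadjusted p under 0.05 it had 3 member probe sets lower (Klf2, Klf10 and Klf13), beside 4.51% of all.

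The genotype comparison asks which genes differ after LPS when Trib1 is missing, an adaptor pseudokinase that sends C/EBP factors for degradation. Klf6 was lower on the KO-labelled arrays on all 5 of its probe sets, by 1.39-fold to 1.71-fold, with no overlap between the groups. Klf2 was 1.73-fold higher. For the other 6 genes the brightest probe set differed by at most 0.44 on the log2 scale. No member passed the test: limma, fitted over 29078 probe sets, gave the 28 member probe sets tested Benjamini-Hochberg adjusted p between 0.891 and 0.999. Nor did any probe set of the whole table, 0.0% being called higher and 0.0% lower, while 2.28% were higher and 2.71% lower at an unadjusted p under 0.05.

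Klf6 on its brightest probe set, 1433508_at, measured 2986 and 3196 on the KO-labelled arrays and 4178 and 5409 on the WT arrays, a mean of 3091 ± 149 against 4794 ± 871 (SD, n = 2 each). Both KO-labelled arrays lay under both WT arrays, and also under the LPS pair, which measured 6144 with LPS and 5095 in medium. The log2 difference was -0.62 (SE 0.19; limma, Benjamini-Hochberg adjusted p = 0.950, n = 2 each). The largest difference was on 1418280_at, with 1447 and 1122 on the KO-labelled arrays and 2269 and 2092 on the WT arrays, beside 2083 with LPS and 1489 in medium in the pair. There KO 1 lay close to the medium value. Its log2 difference was -0.77 (SE 0.20; limma, Benjamini-Hochberg adjusted p = 0.891, n = 2 each).

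The smallest Klf6 difference was on 1427742_a_at, where the KO-labelled arrays measured 1399 and 1555 and the WT arrays 1737 and 2436, with 3077 and 2961 in the LPS pair. KO 2 and WT 1 were neighbours there, 1555 against 1737. On 1447448_s_at the values were 941.8 and 1122 against 1450 and 1987, and on 1459718_x_at 319.7 and 343.5 against 480.2 and 516.9. The last 2 probe sets come from 1 design sequence, and their suffixes mark probes that can also bind other transcripts. On all 5 probe sets both KO-labelled arrays were the lowest of the 6 arrays, medium included.

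**Figure D3:**
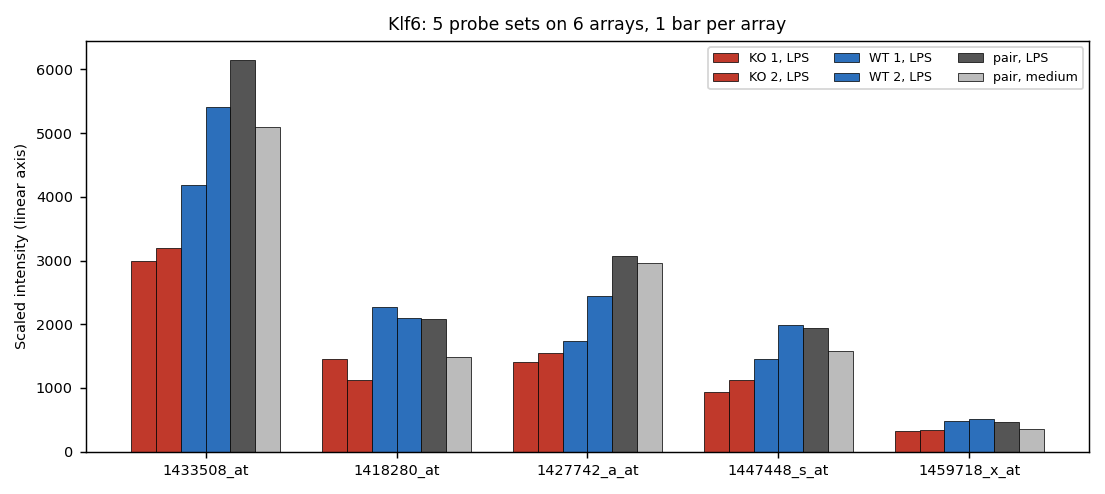
Scaled intensity (linear axis) of the 5 Klf6 probe sets, 1 bar per array, for the KO-labelled (red), WT (blue), LPS-pair LPS (dark grey) and medium (light grey) arrays. The red bars are the lowest of each probe set, for example 2986 and 3196 on 1433508_at against 4178 and 5409 for the blue bars.

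The stretch before Klf6 is shown because all 5 Klf6 probe sets had lower values on the KO-labelled arrays. It covers chr13:5861239-5861488 on the + strand of GRCm38.p6, marked as above.

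Klf6: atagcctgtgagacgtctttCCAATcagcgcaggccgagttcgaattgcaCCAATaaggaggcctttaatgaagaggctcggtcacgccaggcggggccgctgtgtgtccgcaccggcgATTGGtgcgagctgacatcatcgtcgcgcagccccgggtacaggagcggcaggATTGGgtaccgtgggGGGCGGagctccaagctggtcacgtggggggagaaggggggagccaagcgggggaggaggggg

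It holds CCAAT or its complement ATTGG 4 times, at 230, 200, 131 and 78 bases before the start, a motif present at least once in 33.9% of promoters. The GC box stands once, 63 bases before the start. TTNNGNAA, a form of the C/EBP site, was searched because Trib1 acts on C/EBP factors. It was not found before Klf6 or before any of the other 6 members with a promoter, while 36.9% of all promoters held it. Only 250 bases were searched, and these stretches were 59.2% to 78.4% G and C, while the pattern fixes mostly A and T. The absence therefore says nothing of whether C/EBP factors act on these genes.

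Klf2 was the member with the largest positive difference. Its intensity was 346.9 and 379.9 on the KO-labelled arrays and 284.5 and 155.1 on the WT arrays, a mean of 363 ± 23.3 against 220 ± 91.5 (SD, n = 2 each). The groups did not overlap, but the wild-type LPS array of the pair, at 509.5, exceeded both KO-labelled values. The log2 difference was 0.79 (SE 0.35; limma, Benjamini-Hochberg adjusted p = 0.999, n = 2 each). As all these arrays lay under the medium value of 1463, the KO-labelled arrays were the nearer to it within the line.

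Among the other members, Klf9 (1428288_at) had separate groups, 422.0 and 436.2 on the KO-labelled arrays against 557.3 and 499.0 on the WT arrays, a log2 difference of -0.30 (SE 0.20). Its other 6 probe sets overlapped and ran from -0.24 to 0.27. Klf3 had log2 differences under 0 on 5 of 6 tested probe sets, from -0.64 to 0.04, and separate groups on 2. On 1431630_a_at it measured 580.4 and 471.8 on the KO-labelled arrays against 755.8 and 607.9 on the WT arrays, and on 1441200_at 88.3 and 65.2 against 125.9 and 110.8. Its brightest probe set overlapped and differed by -0.35 (SE 0.30), and without WT 1 that difference was 0.062.

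Klf4 and Klf10 differed more between the arrays of a genotype than between the genotypes. Klf4 (1417394_at) had a log2 difference of -0.35 with an SE of 0.79, and Klf10 one of 0.44 with an SE of 0.57. On both genotypes Klf4 was higher on the array numbered 2 and Klf10 on the array numbered 1, and the labels do not say what the number stands for. Leaving out WT 2 or KO 1 turned the sign of both. Klf7 differed by -0.085 (SE 0.22) and Klf13 by -0.32 (SE 0.37, turned to 0.20 without KO 2), with overlapping groups on these probe sets. Klf7 turned sign too, to 0.040 without WT 2 and 0.057 without KO 2. A further Klf7 probe set, 1449439_at, had separate groups, with 457.9 and 398.5 on the KO-labelled arrays against 469.0 and 504.3 on the WT arrays, KO 1 and WT 1 being nearly level.

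**Figure D4:**
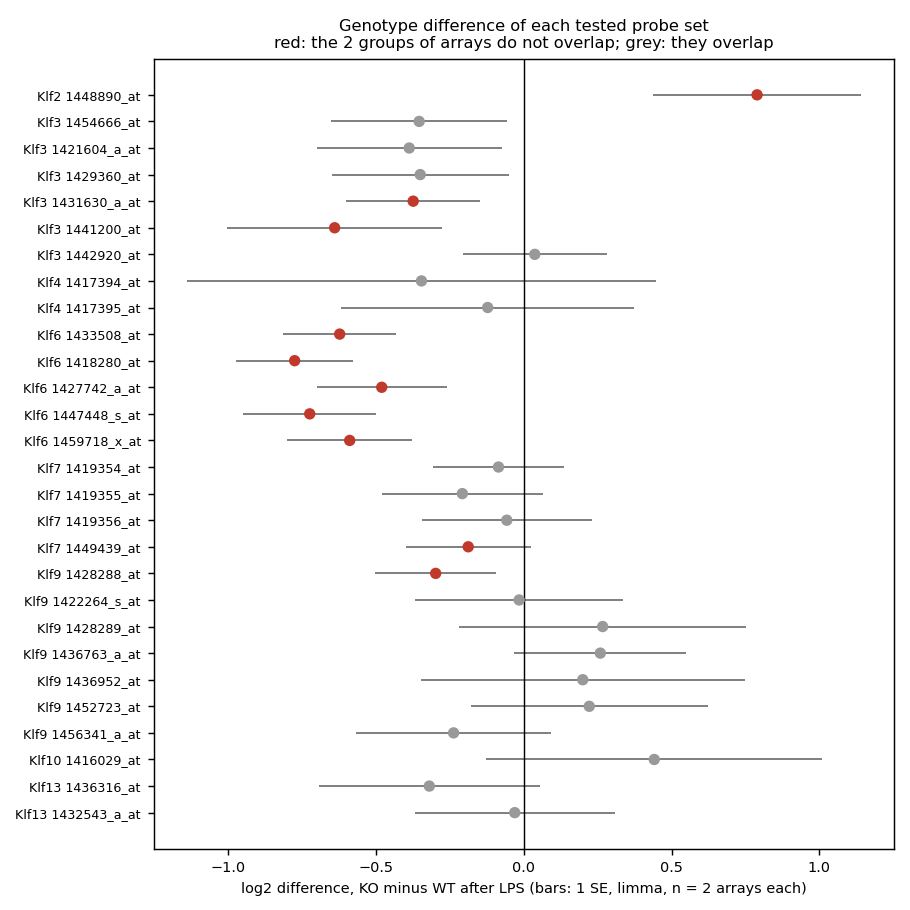
log2 difference of the KO-labelled over the WT arrays after LPS for the 28 tested Kruppel-like factor probe sets, with 1 SE from limma (n = 2 arrays each). Red marks probe sets whose groups do not overlap. The 5 Klf6 probe sets lie between -0.77 and -0.48, and Klf2 lies at 0.79.

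Counted together, both KO-labelled arrays lay under both WT arrays for 9 of the 28 tested member probe sets, beside 16.3% of all probe sets tested, and above both for 1, beside 15.4%. Of the 9, 5 were Klf6, 2 Klf3, 1 Klf7 and 1 Klf9, and the 1 was Klf2. With 1 probe set per gene the counts were 2 of 8 under (Klf6 and Klf9, beside 15.7% of genes) and 1 of 8 above (beside 16.9%). The larger count over probe sets comes from further probe sets of Klf6, Klf3 and Klf7. The brightest probe sets of Klf3 and Klf7 overlapped. At an unadjusted p under 0.05 the limma fit had 4 member probe sets lower (beside 2.71% of all probe sets tested) and 0 higher (beside 2.28%). The 4 were all of Klf6, and 2 of them come from 1 design sequence, so they are not separate calls.

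Markers of other cells moved with the genotype labels too. None of the markers measured was at exactly 0 on any array. The summed intensity of 7 neutrophil markers was 16230 and 7778 on the KO-labelled arrays and 1507 and 1530 on the WT arrays, most of it from S100a8 and S100a9, and that of 6 mesothelial and stromal markers 1383 and 3224 against 907.2 and 1004. S100a9 alone measured 6906 and 205.6 on the KO-labelled arrays and 11.5 and 8.10 on the WT arrays. The neutrophil granule gene Ltf ran the other way, 40.2 and 12.7 against 87.0 and 87.2, Camp was above both WT arrays like S100a8 and S100a9, and Mpo, Elane and Cxcr2 overlapped. In the LPS pair the neutrophil sum was 1183 with LPS and 798.7 in medium, and the stromal sum 497.5 and 608.5. Summed B cell markers ran the other way, 252.3 and 372.0 against 473.5 and 583.8, with 2319 with LPS and 1268 in medium in the pair. T and NK cell markers summed to 310.1 and 388.0 against 366.7 and 467.9 (613.5 and 308.2 in the pair), with Cd4 under the floor on all 6 arrays, and endothelial markers to 277.6 and 495.4 against 334.5 and 531.5 (288.2 and 158.3). The part of other cells in the Klf6 and Klf2 values was not tested, and in such samples fewer cells of a type and less RNA per cell cannot be told apart.

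Of the rest of the KLF and SP family, 15 genes were measured. Among them 11 were above the floor in the LPS pair, and 0 reached a 4-fold change (beside 1.21% of genes higher and 0.672% lower). Their median log2 ratio was -0.23, beside -0.11 over all genes. Klf15, Sp5 and Sp8 were under the floor on all 6 arrays. Between genotypes 11 were tested, 0 passed limma's adjusted threshold, and 1 had separate groups, with the KO-labelled arrays under (beside 15.7% of all genes). This was Sp6, 21.0 and 27.6 on the KO-labelled arrays, both under the floor, against 30.2 and 101.4 on the WT arrays, at least 1.85-fold lower (limma, Benjamini-Hochberg adjusted p = 0.999).

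Cofactors, regulators and modifiers of KLFs numbered 25, all above the floor in the pair, with 0 past 4-fold (beside 1.21% of all genes higher and 0.672% lower). Their median log2 ratio was -0.28, beside -0.11 over all genes. Between genotypes 0 of 24 passed, 4 had the KO-labelled arrays above and 4 under the WT arrays, near the 16.9% and 15.7% of all genes, and the median difference was -0.0095. Mef2c, one of the MEF2 factors that drive Klf2 in endothelium, measured 4.20 and 16.8 on the KO-labelled arrays, under the floor, against 47.8 and 59.3 on the WT arrays, at least 1.78-fold lower (limma, Benjamini-Hochberg adjusted p = 0.950). Mapk7, the kinase that activates MEF2, measured 340.1 and 452.4 against 297.1 and 216.3, a log2 difference of 0.63 (adjusted p = 0.999). Ep300, a coactivator acetyltransferase, measured 353.8 and 336.1 against 517.6 and 466.8, a log2 difference of -0.51 (adjusted p = 0.999).

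Genes reported to be activated by KLFs were a mixed list, with 2 of 13 at least 4-fold higher with LPS (beside 1.21% of all genes) and 1 lower (beside 0.672%). Their median log2 ratio was -0.24, beside -0.11 over all genes. Ccl5, a T cell target of Klf13, was 17.4-fold higher at 23253 with LPS and 1340 in medium, while Klf13 itself lay under medium. Il10, an anti-inflammatory cytokine gene, was 4.77-fold higher, and Pparg, a lipid-sensing nuclear receptor gene linked to alternative activation, was under the floor with LPS and 144.0 in medium, at least 4.82-fold lower. Between genotypes 6 of 12 tested had the KO-labelled arrays above the WT arrays (beside 16.9% of all genes) and 1 under (beside 15.7%), with a median difference of 0.47 beside 0.0090 over 13897 genes, and 0 passed. Among those with separate groups the largest were Arg1, the arginase of alternative activation, at 4767 and 1626 against 1135 and 250.1 (log2 2.39, SE 0.81), Itgb7, an integrin gene, at 2183 and 1736 against 1133 and 558.8 (log2 1.29, SE 0.36), and Il10 at 224.8 and 65.2 against 56.6 and 53.6 (log2 1.14, SE 0.63). Their limma adjusted p (Benjamini-Hochberg) were 0.951, 0.909 and 0.999. The wild-type LPS array of the pair measured 5057 for Arg1, above both KO-labelled arrays, and 185.7 for Il10, above KO 2. For Itgb7 it measured 981.0, under both. Retnla, an alternative activation gene chosen here after its values were seen, overlapped at 32.8 and 90.8 against 27.8 and 792.0 (log2 -1.49, SE 1.51).

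Genes reported to be repressed by KLFs were mostly inflammatory, with 5 of 11 at least 4-fold higher with LPS (beside 1.21% of all genes) and 0 lower (beside 0.672%). Their median log2 ratio was 1.86, beside -0.11 over all genes. The 4 largest were Il6 (294-fold), Il12b (171-fold), Nos2 (170-fold) and Il1b (69.3-fold). Between genotypes 0 of 11 passed, 3 lay above (beside 16.9% of all genes) and 1 under (beside 15.7%), with a median difference of 0.14. F3, which encodes tissue factor, measured 1345 and 588.6 against 360.4 and 572.3 (log2 0.97, SE 0.45), Il12b 8829 and 9118 against 15341 and 14355 (log2 -0.73, SE 0.16), and Nos2, the inducible nitric oxide synthase, 10295 and 10048 against 4615 and 8729 (log2 0.68, SE 0.31). The KO-labelled F3 and WT F3 values nearly met, at 588.6 and 572.3, and limma adjusted p (Benjamini-Hochberg) were 0.999, 0.872 and 0.999. The wild-type LPS array of the pair measured 1636 for F3, above both KO-labelled arrays. For Il12b it measured 18743 and for Nos2 7251, on the WT side of both KO-labelled arrays.

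Of 15 other macrophage transcription factor genes, 2 were at least 4-fold lower with LPS (beside 0.672% of all genes) and 0 higher (beside 1.21%). Cebpa, a C/EBP factor, measured 553.9 with LPS and 4157 in medium (7.51-fold lower) and Egr1, an immediate early factor, 525.8 and 2919 (5.55-fold lower). The median log2 ratio was -0.13, beside -0.11 over all genes. Between genotypes 2 lay above (beside 16.9% of all genes), 3 under (beside 15.7%) and 0 passed. Nr4a1, a nuclear receptor gene, measured 552.5 and 170.4 on the KO-labelled arrays against 128.5 and 145.3 (log2 1.17, SE 0.57), Egr2, a zinc finger factor, 573.5 and 529.5 against 947.2 and 948.5 (log2 -0.78, SE 0.18), and Bhlhe40, a helix-loop-helix factor, 982.1 and 878.0 against 491.3 and 768.7 (log2 0.60, SE 0.27). Limma adjusted p (Benjamini-Hochberg) were 0.999, 0.874 and 0.999. The wild-type LPS array of the pair measured 1587 for Bhlhe40, above both KO-labelled arrays, and 236.9 for Nr4a1, above KO 2. For Egr2 it measured 1492, above both WT arrays.

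Likeness of profile was measured as the Pearson correlation of log2 values over the 6 arrays, among 8073 single-gene probe sets above the floor on all arrays with at least a 2-fold range. With so many candidates and 6 points that share scale and the single medium array, high values are to be found for any profile, and they are given as a description only. Klf2 was most like Atp7a (r = 0.997), a copper transporter gene, and Bms1 (r = 0.996), a ribosome assembly factor gene. Klf10 was most like Adcy7 (r = 0.998), an adenylate cyclase gene, and Tbc1d10a (r = 0.996). Klf4 followed 5430416N02Rik (r = 0.980) and Ccnd1 (r = 0.979), which encodes cyclin D1 and also had a low array 1 and a high array 2 in each genotype, at 39.7 and 165.9 on the KO-labelled arrays and 88.3 and 232.7 on the WT arrays. Klf6 was most like Hipk2 (r = 0.997), a kinase gene, with 149 and 174.7 on the KO-labelled arrays and 239.3 and 358.0 on the WT arrays, and like Btaf1 (r = 0.989). Klf13 was most like Vps37a and Vps36 (both r = 0.987), which encode endosomal sorting proteins. Among the members, Klf2 and Klf10 (r = 0.86) and Klf10 and Klf13 (r = 0.80) had the most similar profiles, while Klf4 and Klf10 had r = 0.0053. Klf3, Klf7 and Klf9 varied less than 2-fold over the arrays on their brightest probe sets and were not matched.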

How the data were processed

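RNA was measured on 6 one-colour Affymetrix arrays from biotinylated cRNA, per the labels' protocols. The authors deposited 1 linear intensity per probe set and array, computed with MAS5 per the submitters' processing notes. The version and scaling target are not given in the sources used here, and no detection calls were used. Of 45101 probe sets 64 controls were left out. Symbols came from the platform annotation (34945 probe sets with 1 symbol, 932 with several, 9160 with none) and were updated through the gene ID in RefSeq's table for 34741.

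Each array was scaled to a common mean of 234 without the lowest and highest 2%, values under the pooled 40th percentile (29.9) were set to it, and log2 was taken. LPS over medium has 1 array each and no test. The genotype test was limma's (version 3.58.1, R 4.3.3; lmFit, eBayes with a trend), two-sided, with Benjamini-Hochberg adjustment and a threshold of 0.05, over probe sets exceeding the floor on 2 or more of these 4 arrays. With 4 arrays, their number limits the precision. The method was run on simulated data with independent noise and changes far larger than any genotype difference of a member here. That run does not gauge how well differences of the members' size are found. Figures used Python 3.11.15, pandas 2.3.3, numpy 2.4.6 and matplotlib 3.10.9.

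The members, lists and tests were chosen with earlier results of these data known. Genes were named by rule: all members and Trib1, the 2 genes most alike in profile per member, and from each list up to 4 past the 4-fold rule and up to 3 with separate genotype groups and the largest difference. The probe set with the highest mean stands for a gene. Alternatives were other scalings and floors, log2 of the value plus 16, fold rules of 2 and 8, other arrays in the LPS ratio, a block, arrays left out or added, no trend, a wider filter and 1 probe set per gene.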

Additional observations from a re-analysis of the deposited data

How the results depend on the processing

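No member passed the adjusted threshold of the genotype fit under any alternative run, the counts staying at 0 higher and 0 lower. The number of the labels, taken as a replicate block, gave 85 higher and 31 lower over all probe sets against 0 and 0, and a smallest adjusted p of 0.112 for Klf6 on 1433508_at and 0.0802 on 1418280_at. Each number is shared by a KO-labelled and a WT array, and the labels do not say whether these are a pair. Deviations of same-numbered arrays from their group means correlated at r = 0.35 across 29078 probe sets. A pairing is thus not settled, and the main fit used none. Leaving out an array gave 5 to 36 higher and 0 to 32 lower over all probe sets. Separate groups then counted 3 to 5 member probe sets higher and 13 to 15 lower, since a lone array overlaps less by construction. With the LPS array of the pair as an added wild type they counted 0 higher and 8 lower, and with 1 probe set per gene 1 and 2, since fewer are tested. Klf6 kept its sign in all 14 alternatives on 1433508_at (-0.81 to -0.44) and in all 13 on each of its other 4, and Klf2 in all 14 (0.35 to 1.23). Leaving out 1 array, Klf3 ranged from -0.77 to 0.062, turning sign without WT 1. Klf4 ranged from -1.36 to 0.67 and turned without WT 2 (0.42) or KO 1 (0.67). Klf7 ranged from -0.23 to 0.057 and turned without WT 2 (0.040) or KO 2 (0.057). Klf10 ranged from -0.21 to 1.09 and turned without WT 2 (-0.14) or KO 1 (-0.21), and Klf13 ranged from -0.84 to 0.20 and turned without KO 2. For LPS over medium the count of member probe sets at least 4-fold lower was 0 in the pair (beside 0.598% of all probe sets). By a 2-fold rule it was 3 (beside 6.29%). It was 2 with WT 1 in place of the LPS array (Klf2 and Klf4), and 4 with WT 2 in its place (Klf2, Klf10 and 2 of Klf9). These swaps set arrays of the Trib1 line against the medium array of the pair, and their shares over all probe sets were not taken. With WT 1 in place of the LPS array, the log2 ratio turned for Klf3 (0.40) and Klf6 (-0.29). The count of member probe sets with all 5 LPS-treated arrays under medium was 13 or 14 in the 4 alternatives, added after the data were seen, that used all 5 arrays. With the 3 wild-type LPS arrays only it was 15, fewer arrays lying on 1 side more easily. The share over all probe sets was taken only in the main setting, at 22.1%. The causes of the other moves were not tested. Single arrays per condition and 2 per genotype limit what can be called.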

Other observations

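Klf11, a family member induced by transforming growth factor beta and chosen here after its values were seen, measured 257.8 and 207.9 on the KO-labelled arrays and 360.1 and 150.1 on the WT arrays, beside 80.5 with LPS and 67.9 in medium in the LPS pair. All 4 Trib1-line arrays lay above both arrays of the pair, while the genotypes overlapped. The 2 sets of arrays differ in deposited scale and in sex, and these cannot be told apart from a difference between the macrophages.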
